A study of Oryctolagus cuniculus with 6 samples.

Results

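TNFAIP6 and VCAN encode proteins of the hyaluronan matrix, the gel of sugar chains that surrounds cells in many tissues. All array probes whose deposited gene name or description is that of tumor necrosis factor alpha-induced protein 6 or versican were taken, which gave 7 probes for TNFAIP6 and 6 for VCAN, 13 of the 43603 probes on the array and 2 of the 10601 genes with a named probe. Both genes were picked because of their difference between ligated and sham arrays in these same data, so that difference is given as a description and is not tested.

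The animals were New Zealand White rabbits, all female, and the cells were smooth muscle cells of the basilar artery. In the ligated group both common carotid arteries were tied, which raises flow in the basilar artery, and in the sham group the same arteries were exposed but not tied. Cells of both groups were collected on day 5 by perfusing the artery with elastase and collagenase and then releasing the cells by trituration, so each sample is an enzymatic digest with no sorting step. The labels give 3 rabbits per group and 3 arrays per group, do not say whether an array holds 1 rabbit or a pool, and do not give the animals' ages.

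Hyaluronan is a long, unbranched sugar polymer that synthases in the plasma membrane spin directly into the space around the cell. TNFAIP6, also called TSG-6, is a secreted hyaluronan-binding protein that inflammatory cytokines induce, and it moves heavy chains from inter-alpha-inhibitor onto hyaluronan, which cross-links the polymer. Versican, encoded by VCAN, is a large chondroitin sulfate proteoglycan that binds hyaluronan through its N-terminal domain and is a main proteoglycan of the artery wall, where it is known to accumulate in injured and thickened intima.

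The probe sequences show which stretch of each message the values read. They are the array's own probe sequences, joined where they overlap and written 5′ to 3′, with positions counted along the transcript to which the probe was designed. Capitals mark the probe that stands for the gene, which is the tested probe with the highest mean signal, and in the second VCAN stretch the 54 bases that all 5 of its probes share.
TNFAIP6 bases 593 to 774: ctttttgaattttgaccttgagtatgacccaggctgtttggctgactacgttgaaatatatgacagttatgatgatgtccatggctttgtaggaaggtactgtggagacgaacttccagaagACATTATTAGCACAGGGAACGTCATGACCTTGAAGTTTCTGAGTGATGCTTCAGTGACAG
VCAN bases 732 to 791: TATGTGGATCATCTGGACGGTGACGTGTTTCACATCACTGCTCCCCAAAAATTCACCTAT
VCAN bases 9995 to 10060: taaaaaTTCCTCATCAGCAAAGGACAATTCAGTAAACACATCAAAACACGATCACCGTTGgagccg

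The TNFAIP6 stretch is 182 bases long, has a GC content of 42.3%, and lies on rabbit build oryCun2 within chr7:90358989-90367714. Its 7 probes overlap and are not independent of each other. By the coordinates in the files, 5 of them cross an intron, the probe at base 673 touches 3 exons, and the probes at bases 593 and 611 each lie in 1 exon. The first VCAN stretch, with 45.0% GC, crosses an intron within chr11:3726492-3746091, and the second, with 40.9% GC, lies in 1 exon at chr11:3812096-3812161. Both VCAN stretches thus read the message far apart, near base 732 and near base 10000, and no other probe on the array shared a run of 20 bases with any of the 3 stretches.

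Each array read 43603 probes, of which 61.9%, 63.7% and 61.6% were well above background in ligated cells and 58.7%, 61.3% and 63.4% on the sham arrays. No spot was saturated, and precision is limited by having 3 arrays in each group. All ligated arrays were on one slide and all sham arrays on another, so the slide cannot be told apart from ligation. Sham 3 was scanned on another day than the other 5 arrays. Of 10 spike-in controls, 5 were lower on every ligated array than on every sham array after scaling, with a median difference of -0.81. Sham 2 and sham 3 were the most alike of all pairs of arrays, with an SD of their log2 differences of 0.30 against 0.55 to 1.07 in the other 14 pairs. All 9 tested smooth muscle markers, among them MYH11 and ACTA2, the myosin heavy chain and actin of the contractile apparatus, were well above background on all 6 arrays. Because these are bulk samples, fewer cells of a type and less RNA per cell cannot be told apart in any level below.

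TNFAIP6 was high on all 3 ligated arrays and low on all 3 sham arrays. The probe at base 715, which stands for the gene, had processed signals of 1823, 3309 and 1959.7 on the ligated arrays, against 83.9, 43.5 and 47.1 on the sham arrays. On the normalised log2 scale, on which 0 is the 75th percentile of the array, this probe read 3.33, 3.72 and 3.64 in ligated cells, against -1.40, -2.25 and -2.25 in sham cells. TNFAIP6 therefore lay above the upper quartile of signals on each ligated array and below it on each sham array. The ligated mean of 3.56 ± 0.21 and the sham mean of -1.97 ± 0.49 (SD, n = 3 each) differed by 5.53 ± 0.29 (SE), a 46.3-fold difference.

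The other TNFAIP6 probes gave the same picture along the 182 bases. At base 691 the values were 2.72, 3.12 and 2.91 in ligated cells, against -2.10, -2.54 and -2.60 in sham cells, a difference of 5.33 ± 0.22. At base 673, the probe that touches 3 exons, they were 2.44, 2.84 and 2.59 in ligated cells, against -2.18, -2.92 and -2.66 in sham cells, and the difference of 5.21 ± 0.25 was the smallest of the 7 on the processed signal. The probe at base 651 read 2.22, 2.67 and 2.42 in ligated cells, against -2.42, -3.44 and -3.08 in sham cells. In all of these probes ligated 2 was the highest array and sham 1 the highest of the sham arrays.

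Toward base 593 the sham readings came closest to background. The probe at base 633 had 1.61, 1.81 and 1.70 in ligated cells, against -3.35, -5.26 and -4.22 in sham cells, a difference of 5.99 ± 0.46 that rests on a sham 2 reading not well above background and was 2.14 with normexp. At base 611 the readings were 2.04, 2.39 and 2.17 in ligated cells, against -2.75, -3.61 and -3.62 in sham cells. At base 593 they were 1.96, 2.25 and 2.03 in ligated cells, against -2.93, -4.35 and -3.48 in sham cells. The probes at bases 593 and 633 were well above background on 2 of the 3 sham arrays, and the other 5 probes on all 6 arrays. Over those 5 probes the fold difference was 36.9 to 46.3.

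All 7 TNFAIP6 probes passed the filter on dim probes, and in each of them the lowest ligated array stood above the highest sham array, by 4.62 to 4.96 on the log2 scale. Across the whole array the groups did not overlap in 34.7% of tested probes, with ligated values all higher in 17.6% and all lower in 17.1%. The SD was 0.10 to 0.22 among ligated arrays and 0.27 to 0.96 among sham arrays, so these probes varied more from array to array where TNFAIP6 was low. Ranked by size of the positive difference, 11 of the 27410 tested probes, TNFAIP6's own included, had a difference at least as large as that of the probe at base 715, as did 4 of 7859 genes with TNFAIP6 counted.

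**Figure D1:**
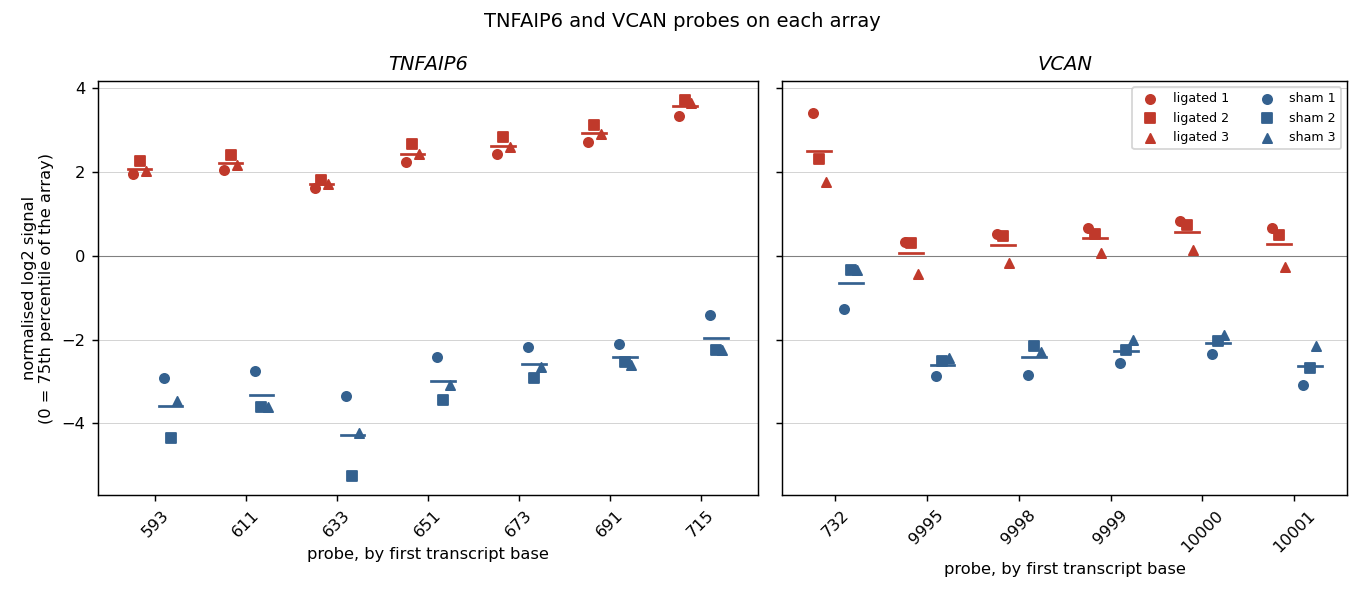
Normalised log2 signal of every TNFAIP6 and VCAN probe on each array, with ligated arrays to the left of sham arrays and 0 at the array's 75th percentile. Points are single arrays. For each of the 13 probes the 3 ligated arrays lie above the 3 sham arrays.

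VCAN was also higher on every ligated array, by a smaller amount and with more spread between ligated arrays. The probe at base 732, which stands for the gene, had processed signals of 1937, 1251 and 530.1 on the ligated arrays, against 91.7, 164 and 176 on the sham arrays. On the normalised log2 scale it read 3.42, 2.32 and 1.76 in ligated cells, against -1.27, -0.33 and -0.35 in sham cells. Ligated 1 was the highest ligated array and sham 1 the lowest sham array. The ligated mean was 2.50 ± 0.85 and the sham mean -0.65 ± 0.54 (SD, n = 3 each), a difference of 3.15 ± 0.48 (SE) or 8.87-fold.

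The 5 probes of the second VCAN stretch sit about the same 66 bases and share most of their sequence, so they count as repeated readings of 1 place in the message. At base 10000 the values were 0.82, 0.72 and 0.15 in ligated cells, against -2.33, -2.04 and -1.89 in sham cells, a difference of 2.65 ± 0.25. At base 10001 they were 0.66, 0.48 and -0.28 in ligated cells, against -3.08, -2.69 and -2.16 in sham cells, a difference of 2.93 ± 0.34. Ligated 3 was the lowest ligated array and sham 1 the lowest sham array for these probes, as for the probe at base 732. The probes at bases 9995, 9998 and 9999 differed by 2.67 ± 0.27, 2.69 ± 0.29 and 2.69 ± 0.25, and the fold difference over the 5 probes was 6.29 to 7.62.

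All 6 VCAN probes were well above background on all 6 arrays, and in each the lowest ligated array exceeded the highest sham array, by 1.88 to 2.09. The same order held for 17.6% of all tested probes, as given above. Among tested probes 205 had a positive difference at least as large as that at base 732, and among genes 56 did, VCAN included.

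**Figure D2:**
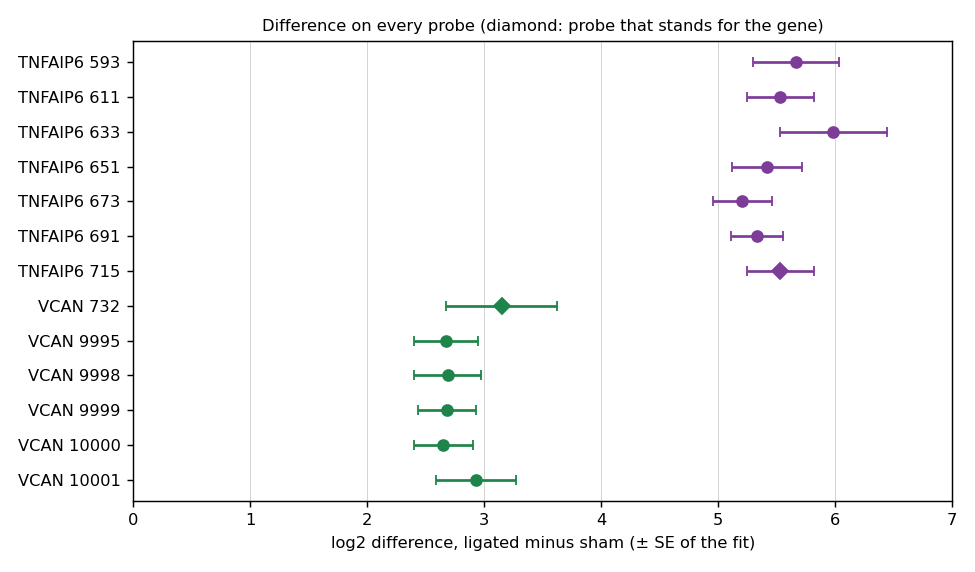
Difference between ligated and sham means for each TNFAIP6 and VCAN probe, in log2 units, with bars of 1 standard error from the fit across all probes. TNFAIP6 probes lie between 5.21 and 5.99 and VCAN probes between 2.65 and 3.15.

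Read within an array, the ratio of both genes does not depend on the 1 factor by which each array was scaled. Background handling can move this ratio. With normexp, which also adds 50 to every signal, the differences were 3.32 for TNFAIP6 and 1.99 for VCAN, against 5.53 and 3.15. A level of one probe cannot be set against that of another, but the change of their ratio between groups can be read. The log2 ratio of the TNFAIP6 probe at base 715 to the VCAN probe at base 732 was -0.09, 1.40 and 1.89 on ligated arrays, against -0.13, -1.92 and -1.90 on sham arrays. These values did not overlap, ligated 1 at -0.09 lay only just above sham 1 at -0.13, and the group means of 1.07 ± 1.03 and -1.32 ± 1.03 (SD, n = 3 each) differed by 2.38. Against the mean of the second VCAN stretch, the TNFAIP6 ratio was 2.73, 3.22 and 3.78 on ligated arrays, against 1.33, 0.07 and -0.09 on sham arrays, a difference of 2.81. The TNFAIP6 difference was thus larger than that of VCAN by either VCAN stretch, as a description of these 6 arrays.

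Between the stretches of VCAN itself the ratio changed less. The ratio of the probe at base 732 to the mean of the 5 probes near base 10000 was 2.82, 1.82 and 1.89 on ligated arrays, against 1.46, 1.99 and 1.81 on sham arrays. The groups overlapped, and their means differed by 0.42.

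Within each group, TNFAIP6 and VCAN did not follow the same arrays. Averaged over its 7 probes, TNFAIP6 deviated from the group mean by -0.17, 0.18 and -0.01 on the ligated arrays and by 0.57, -0.46 and -0.11 on the sham arrays. VCAN at base 732 deviated by 0.92, -0.18 and -0.74 on the ligated arrays and by -0.62, 0.32 and 0.30 on the sham arrays. Sham 1 was thus the highest sham array for TNFAIP6 and the lowest for VCAN. The second VCAN stretch, with 0.28, 0.18 and -0.46 on the ligated arrays and -0.33, 0.08 and 0.25 on the sham arrays, placed ligated 3 and sham 1 lowest in their groups, as did the probe at base 732.

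**Figure D3:**
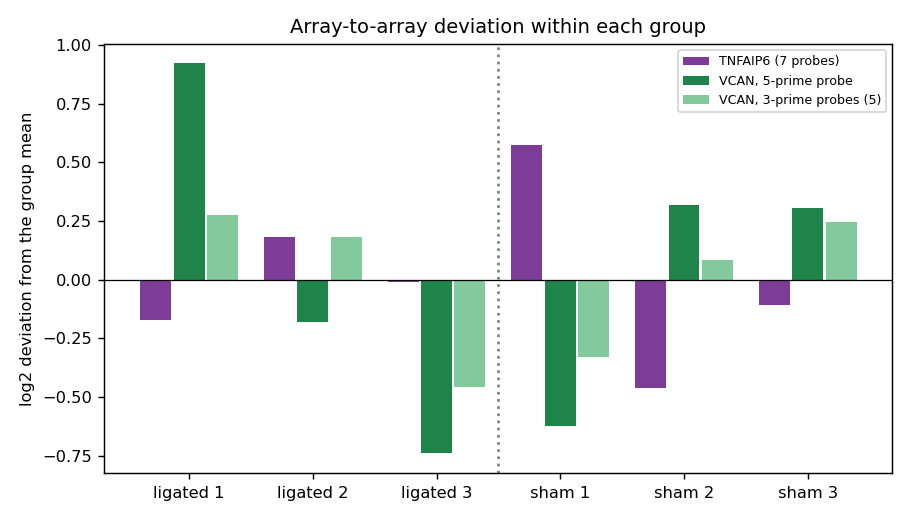
Deviation of each array from its group mean, in log2 units, for the mean of the 7 TNFAIP6 probes, the 5-prime VCAN probe (at base 732) and the mean of the 5 VCAN probes at the 3-prime stretch near base 10000, with ligated arrays to the left of sham arrays. Sham 1 is 0.57 above its group mean for TNFAIP6 and 0.62 and 0.33 below it for the VCAN stretches.

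The other genes of the hyaluronan and versican pathway were tested in 1 fit over all probes with limma. Across the array 8.35% of tested probes passed at an adjusted p of 0.05, 5.71% higher and 2.65% lower in ligated cells, and among named genes 8.79% passed, 6.13% higher and 2.66% lower. Higher probes were 68.3% of those that passed, or 52.2% with arrays centred on their median, which moved the median difference of all tested probes to -0.19 from 0.01. Of 78 pathway genes listed, 54 had a named probe and 45 were tested. In ligated cells 15 of the 45 were higher and 0 lower, which is 33.3%, and 30 did not pass. The median difference was 0.71 over the 45, against 0.01 over all tested probes. The lists were chosen with earlier results of these data known, FBN1, FBN2, CXCL8 and IL6 among them. This share therefore describes the lists and is no independent support. Of the 15, 10 were well above background on all 6 arrays, 3 on only some sham arrays and 2 on no sham array. When a probe had to be well above background on all 6 arrays to be tested, 12 of 38 genes were higher and 2 lower. With normexp background correction 0 of the 45 passed limma (7 at an unadjusted p under 0.05). With normexp without high-background spots 15 of 45 were higher and 1 lower. With sham 2 and sham 3 averaged into 1 sample 4 passed.

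**Figure D4:**
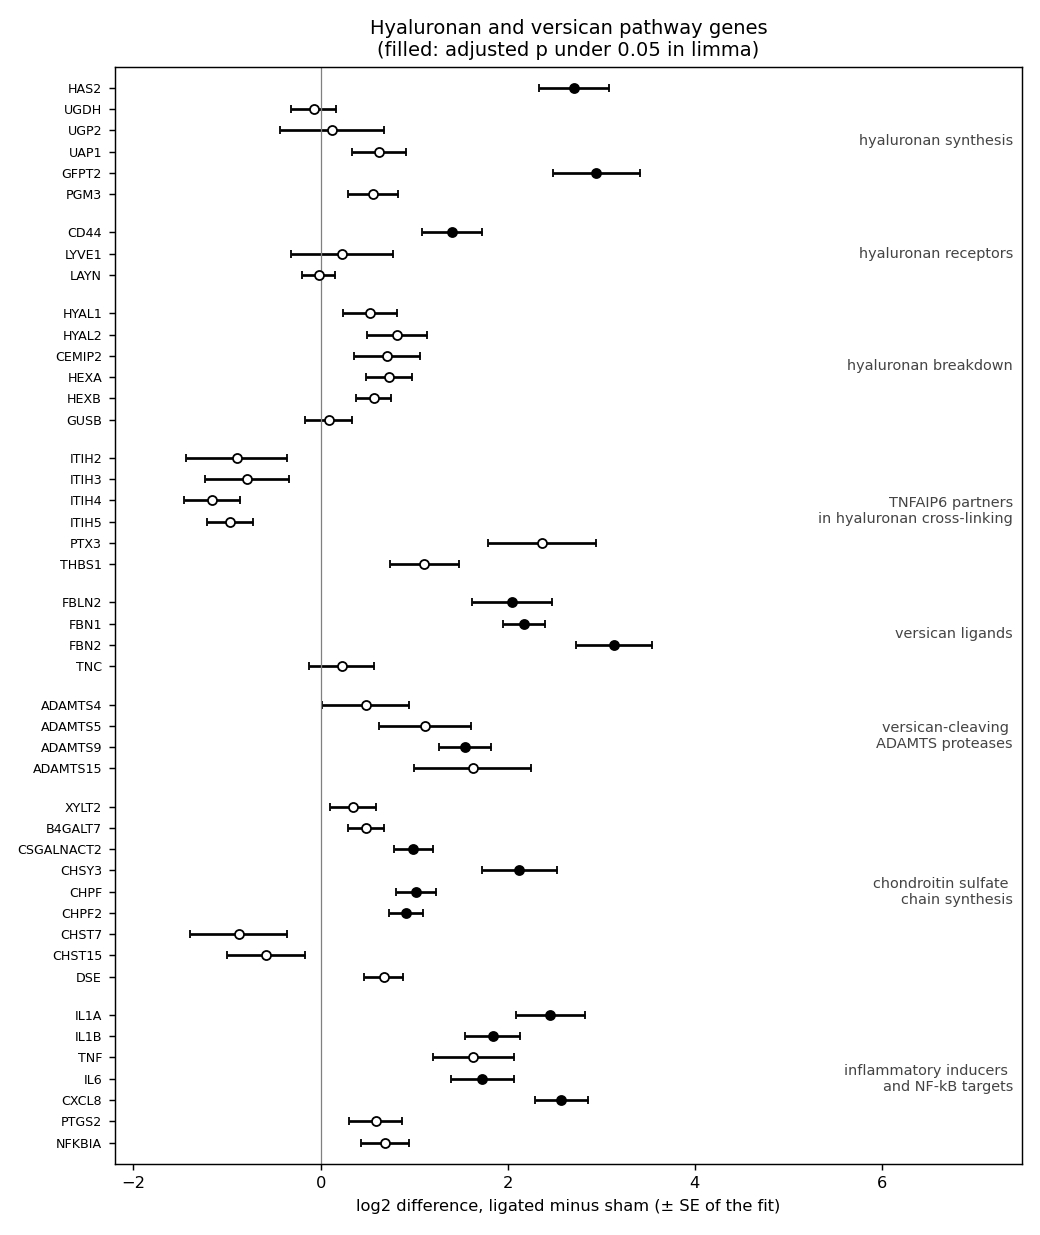
Difference between ligated and sham means, in log2 units with bars of 1 standard error, for the tested genes of the pathway lists, grouped by role. Filled points passed limma at an adjusted p of 0.05. The 15 that passed all lie above 0.

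Among the genes that make hyaluronan, 2 of 6 tested genes were higher. HAS2, the main hyaluronan synthase of vascular smooth muscle, read -1.12, -1.76 and -2.54 in ligated cells, against -4.50, -4.76 and -4.29 in sham cells, with no overlap. It rose by 2.71 ± 0.37 (SE; limma adjusted p = 0.0109). HAS2 was well above background on 1 sham array and on all ligated ones, so the size of its difference rests on sham readings near or below the limit of detection. The difference was 0.89 with normexp and 0.90 with normexp without high-background spots, and HAS2 lost the call without ligated 2 or sham 2 (adjusted p up to 0.0523). GFPT2, which makes the hexosamine from which one of the building blocks of hyaluronan is formed, rose by 2.95 ± 0.46 (adjusted p = 0.0161) with 2 of 3 sham arrays well above background. Its difference was 0.99 with normexp and 1.29 with normexp without high-background spots, and it lost the call when ligated 1, ligated 2, sham 2 or sham 3 was left out (up to 0.0692). UGDH, which makes the other building block, UDP-glucuronic acid, differed by -0.07 (adjusted p = 0.863). The HAS3 probe was well above background on 1 of 6 arrays, a sham array, and was not tested, and HAS1, HMMR and ADAMTS1 had no named probe.

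Of the receptors, CD44, the main cell-surface receptor for hyaluronan, read 2.80, 3.36 and 2.19 in ligated cells, against 1.16, 1.48 and 1.48 in sham cells. It rose by 1.41 ± 0.32 (limma adjusted p = 0.0467), in 1 of its 2 tested probes, and that call ended when any single array other than ligated 3 was left out (adjusted p up to 0.141). LYVE1, the lymphatic hyaluronan receptor, differed by 0.23 (adjusted p = 0.807), and LAYN, which encodes layilin, by -0.02 (adjusted p = 0.948). Of the 6 tested genes for hyaluronan breakdown 0 passed limma, 3 had an unadjusted p under 0.05, and their differences ran from 0.09 to 0.82 with a median of 0.64. HYAL2, a hyaluronidase held on the cell surface, had a difference of 0.82 (adjusted p = 0.164).

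The partners of TNFAIP6 gave 0 calls in 6 tested genes in limma, with 4 at an unadjusted p under 0.05, but 3 of them passed when the filter asked for all 6 arrays. PTX3, a pentraxin that is itself built into the cross-linked hyaluronan matrix, read 0.95, -0.15 and -1.14 in ligated cells, against -1.74, -2.90 and -2.82 in sham cells. Its groups did not overlap, and its difference of 2.37 ± 0.58 had an adjusted p of 0.0556. PTX3 passed in 7 alternatives, with 0.0324 for that filter and 0.021 for the replicate block, and did not in 11. The 11 count apart quantile normalization and the nearly identical deposited table. They also count apart the scan day block and leaving out sham 3, which are the same fit. Its adjusted p was up to 0.179 with 1 array left out, and 0.789 with normexp, where the difference was 1.07. Genes of the inter-alpha-inhibitor heavy chain family, some of whose products TNFAIP6 attaches to hyaluronan, had negative differences, namely -0.90 for ITIH2, -0.79 for ITIH3, -1.16 for ITIH4 and -0.97 for ITIH5. None passed here, but with the filter on all 6 arrays ITIH4 (adjusted p = 0.0445) and ITIH5 (adjusted p = 0.0439) did. With normexp ITIH4 had a difference of 0.01 and ITIH5 of -0.48. The list's median was -0.84. ITIH1 was well above background on 1 of 6 arrays and AMBP, which encodes the light chain bikunin, on 0 of 6, so neither was tested. The link proteins of versican and hyaluronan, and the related proteoglycan aggrecan, could not be compared either. HAPLN1, the main link protein, was well above background on 0 of 6 arrays. The link protein gene HAPLN2 and ACAN, which encodes aggrecan, were well above background on 1 ligated array each.

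Of the proteins that bind versican, 3 of 4 tested genes were higher, with a median difference of 2.11. FBN1, which encodes fibrillin-1 of elastic microfibrils, rose by 2.18 ± 0.23 (limma adjusted p = 0.0051), in 3 of 3 probes and with each array left out in turn. FBLN2, which encodes the microfibril-associated protein fibulin-2, rose by 2.05 ± 0.43 (adjusted p = 0.0369) and lost the call when ligated 1, ligated 3, sham 2 or sham 3 was left out (up to 0.137). FBN2, the gene for fibrillin-2, was on no sham array well above background. It entered the test through its ligated arrays alone. On the processed signal FBN2 was at least 5.13-fold higher in ligated cells (adjusted p = 0.0092), with a bound of 4.54 to 5.48 when 1 array was left out. This bound is for the processed signal only. With normexp the log2 difference was 0.80, or 0.81 without high-background spots. Normexp cannot test the bound, since it adds 50 to every signal, which shrinks the difference of a dim probe. TNC, which encodes the matricellular protein tenascin-C, differed by 0.22 (adjusted p = 0.702).

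Of the ADAMTS proteases that cleave versican, 1 of 4 tested genes was higher. ADAMTS9 rose by 1.54 ± 0.28 (limma adjusted p = 0.0244), against 0.68 with normexp and 0.45 with normexp without high-background spots, with the call lost when ligated 1, ligated 2, sham 2 or sham 3 was left out (up to 0.105). ADAMTS4 read 3.28, 2.35 and 1.72 in ligated cells, against 2.64, 1.58 and 1.69 in sham cells, overlapping groups with a difference of 0.48 ± 0.47 (adjusted p = 0.532). ADAMTS5 read 2.16, 1.27 and 0.17 in ligated cells, against -0.19, 0.24 and 0.20 in sham cells, also overlapping, with a difference of 1.12 ± 0.49 (adjusted p = 0.199), although 1 of its 6 probes passed. ADAMTS15 had a difference of 1.62 (adjusted p = 0.156).

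Versican carries chondroitin sulfate chains, and 4 of the 9 tested genes for making such chains were higher, with a median difference of 0.67. CHPF and CHPF2, which encode chondroitin polymerizing factors, rose by 1.02 ± 0.22 (limma adjusted p = 0.039) and 0.92 ± 0.18 (adjusted p = 0.0308). CSGALNACT2, which begins the chain, rose by 0.99 ± 0.21 (adjusted p = 0.0372). CHSY3, a chondroitin synthase gene, was on no sham array well above background and entered the test through its ligated arrays alone. On the processed signal it was at least 3.12-fold higher in ligated cells (adjusted p = 0.028), with a bound of 2.47 to 3.78 when 1 array was left out. This bound, too, is for the processed signal only. With normexp, which cannot test it because of the added 50, the log2 difference was 0.77, or 0.61 without high-background spots. All 4 calls ended without ligated 1, ligated 2, sham 2 or sham 3, and those of CHPF and CSGALNACT2 also without sham 1, with adjusted p up to 0.152.

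Among inflammatory genes that induce TNFAIP6 in other settings or respond with it, 4 of 7 tested genes were higher, with a median difference of 1.73. IL1B, the gene of the cytokine interleukin-1 beta, averaged 7.97 ± 0.31 in ligated cells and 6.13 ± 0.45 in sham cells (SD, n = 3 each), a rise of 1.84 ± 0.29 (limma adjusted p = 0.0168) seen in 3 of 3 probes. IL1A, which encodes interleukin-1 alpha, rose by 2.46 ± 0.37 (adjusted p = 0.014) in 4 of 4 probes. CXCL8, the gene of the neutrophil-attracting chemokine interleukin-8, rose by 2.57 ± 0.28 (adjusted p = 0.0058) in 7 of 7 probes and kept its call with each array left out in turn. IL6 rose by 1.73 (adjusted p = 0.0298) in 5 of 5 probes. The call ended without ligated 2 or sham 3 for IL1A, IL1B and IL6, also without sham 2 for IL1B and IL6, and also without ligated 1 for IL6, with adjusted p up to 0.118. TNF, the cytokine for which TNFAIP6 is named, had a difference of 1.63 (limma adjusted p = 0.0685). TNF passed in 6 alternatives, with 0.0307 the lowest adjusted p, and did not in 12. The 6 count quantile normalization and the nearly identical deposited table apart. The 12 count the scan day block and leaving out sham 3, the same fit, apart. Its adjusted p was up to 0.168 with 1 array left out, and 0.789 with normexp.

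Beside these changes, markers of cell types in the digest moved as follows, and their part in the TNFAIP6 and VCAN levels was not tested. All 9 smooth muscle markers had negative differences and 2 fell, namely SMTN, which encodes smoothelin (-1.77, limma adjusted p = 0.0079), and DES, which encodes desmin (-1.11, adjusted p = 0.0399). The log2 of their summed signals, called the summed level here, was 8.93 to 10.09 in ligated cells and 10.36 to 11.06 in sham cells. The brightest genes of a list weigh most in its summed level. Of 7 tested fibroblast and meningeal markers 5 rose, LUM, MFAP5, ALDH1A2, SLC6A13 and COL1A1, with a median of 2.38 and a summed level of 7.58 to 8.12 in ligated cells and 6.57 to 6.79 in sham cells.

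The other marker lists had no gene past the threshold in limma. Macrophage markers, 0 of 7 past it and 1 at an unadjusted p under 0.05, had a median difference of 0.28. Their summed level was 3.15 to 5.05 in ligated cells and 3.17 to 4.31 in sham cells. For neutrophil markers 0 of 4 passed, 1 had an unadjusted p under 0.05, the median was 0.28, and the summed level was 1.34 to 2.65 in ligated cells and 0.18 to 1.94 in sham cells. Endothelial markers, 0 of 4 past it and 0 at an unadjusted p under 0.05, had a median of 0.27. Their summed level was 5.75 to 7.13 in ligated cells and 5.64 to 6.66 in sham cells. KDR, the receptor for vascular endothelial growth factor, was not tested. Erythroid markers, 0 of 3 past it and 0 at an unadjusted p under 0.05, had a median of -1.88. Their summed level was 4.83 to 9.38 in ligated cells and 7.56 to 8.60 in sham cells.

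The genes most like TNFAIP6 across the 6 arrays, by the root mean square difference of centred profiles over 6900 genes, were EFNB1 (0.79), EFEMP1 (0.84), CDK1 (0.87), UBE2C (0.89) and FABP5 (0.94). EFNB1 encodes the membrane ligand ephrin-B1, EFEMP1 a fibulin, CDK1 and UBE2C a kinase and a ubiquitin-conjugating enzyme of mitosis, and FABP5 a fatty acid-binding protein. VCAN was the 22nd on this order, at 1.46. The genes most like VCAN were DUSP1 (0.36), a phosphatase gene of the immediate early response, CTHRC1 (0.41), COL1A1 (0.44), which encodes a chain of type I collagen, FRZB (0.44), a secreted Wnt inhibitor gene, and ALDH1A2 (0.45), which encodes a retinoic acid-forming enzyme. TNFAIP6 was the 1324th on the VCAN order. COL1A1 and ALDH1A2 are also on the fibroblast and meningeal list above.

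DUSP1 shows what the VCAN profile looked like in another gene. It read 5.43, 3.44 and 2.61 in ligated cells, against 0.30, 1.13 and 0.97 in sham cells, with ligated 1 highest and sham 1 lowest, as for VCAN at base 732. The differences of the 5 genes most like VCAN were 3.03 for DUSP1, 3.10 for CTHRC1, 3.02 for COL1A1, 2.81 for FRZB and 2.54 for ALDH1A2. Likeness here is a description over 6 arrays of only 2 groups, each on its own slide.

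The size of both member differences depended on how background was handled, and their sign did not. Both normexp settings also added 50 to every signal, and the part of this offset in the smaller differences was not tested. With normexp background correction TNFAIP6 at base 715 differed by 3.32 and VCAN at base 732 by 1.99. With normexp without high-background spots they differed by 4.46 and 2.63. The TNFAIP6 difference was larger than that of VCAN in both of these settings too.

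**Figure D5:**
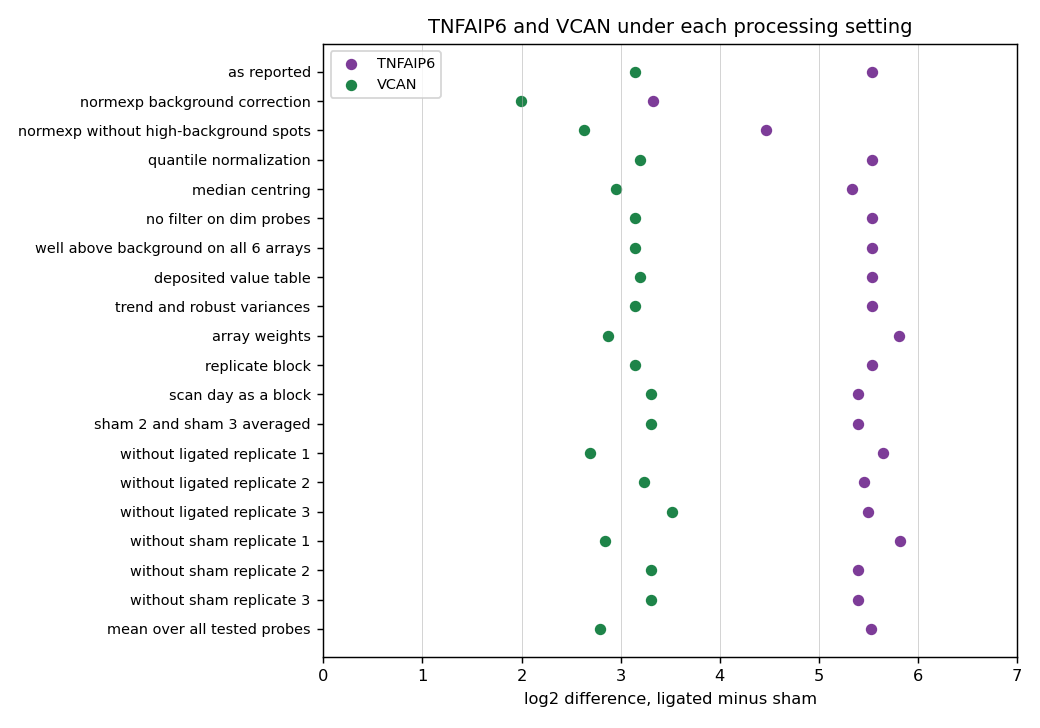
Difference between ligated and sham means of TNFAIP6 at base 715 and VCAN at base 732, in log2 units, under each processing setting tried, with TNFAIP6 5.53 and VCAN 3.15 as reported. The lowest values are those with normexp background correction, 3.32 for TNFAIP6 and 1.99 for VCAN, and all are above 0.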

How the data were processed

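Total RNA was labelled with Cy3 and read on one-colour rabbit arrays, 3 ligated and 3 sham. The deposited processed signal is an intensity made with Agilent Feature Extraction 10.7, per the submitters' processing notes, with background subtracted and no scaling between arrays, per the file headers. Deposited spot signals and backgrounds, also intensity values, were used for normexp. In both normexp settings an offset of 50 was added to every corrected signal, which shrinks log2 differences, most of all for dim probes. Deposited spot flags are of the kind other, 0 or 1. The deposited table of values holds log2 values, made by a step not given in the sources used. Its medians (5.05) and 75th percentiles (7.68) were nearly equal on all 6 arrays. Its differences were almost those of quantile normalization, 5.5347 against 5.5351 for TNFAIP6 and 3.1973 in both for VCAN. It is therefore hardly a further alternative to that setting.

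Spots flagged as outliers were left out, repeated spots averaged, and log2 signals reduced by each array's 75th percentile (signals of 181, 251 and 157 on ligated and 222, 207 and 224 on sham arrays). Probes well above background on at least 3 of 6 arrays (27410 of 43603) entered a linear model in limma 3.58.1 (R 4.3.3; two-sided, moderated variances with 4 residual degrees of freedom to start from, Benjamini-Hochberg over all tested probes, threshold 0.05), after the procedure was tested on simulated data. The p-values measure the spread between these arrays. A fold written as at least sets each array not well above background at the lowest signal called well above background there, or at the probe's own signal if higher.

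Names came from the files through a table of rabbit symbols (assembly mOryCun1.1, no coordinates used): 23821 probes had 1 symbol, 252 several and 19530 none. Coordinates are those of the files, on oryCun2. A gene with several tested probes is represented by the brightest over the 6 arrays. Named genes were all TNFAIP6 and VCAN probes, up to 5 passing genes of each list by smallest p, a set of always-named genes (HAS1, HAS2, HAS3, CD44, HMMR, PTX3, HAPLN1, ADAMTS1, ADAMTS4, ADAMTS5, IL1B and IL6), and the 5 genes most like each member. Others given for context, such as TNF, TNC and UGDH, were picked with their values known. Members and lists were chosen with earlier results of these data known, and FBN1, FBN2, CXCL8 and IL6 were among those results, so their calls are not independent support. Alternatives were normexp, normexp without high-background spots, quantile normalization, median centring, no filter, a filter on all 6 arrays, the deposited table, a trended robust variance, weights per array, scan day or replicate number as a block, sham 2 and sham 3 averaged, the mean of a gene's probes, and leaving out each array.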

Additional observations from a re-analysis of the deposited data

How the results depend on the processing

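The 13 member probes had a positive difference in each setting in which they were tested one by one, the lowest being 2.14 for TNFAIP6 and 1.14 for VCAN. The TNFAIP6 probes at bases 593 and 633 did not enter the filter on all 6 arrays. TNFAIP6 at base 715 (5.53) was 3.32 with normexp and 4.46 with normexp without high-background spots. VCAN at base 732 (3.15) was 1.99 and 2.63 in the same settings. Leaving out 1 array gave 5.39 to 5.81 for TNFAIP6 and 2.69 to 3.52 for VCAN. The number of probes past limma's threshold (2290) was less stable. It was 0 with normexp (615 at an unadjusted p under 0.05), but 2381 with normexp without high-background spots, a step that dropped 0 to 19 spots per array. It was 1524 with no filter, 6098 with array weights, 1295 with the replicate block, 552 with scan day as a block and 595 with sham 2 and sham 3 averaged. Since sham 3 was the only array of its scan day, the scan day block is the same fit as leaving out sham 3 and is no further alternative. Leaving out 1 array gave 552 (sham 3) to 2269 probes, with 595 without sham 2, 752 without ligated 2 and 1205 without ligated 1. Of pathway genes 15 passed, against 0 with normexp (7 unadjusted) and 16 with normexp without high-background spots. The count was 25 with array weights, 4 with scan day as a block and 4 with sham 2 and sham 3 averaged. Leaving out 1 array gave 4 to 18, with 4 without ligated 2, sham 2 or sham 3 and 6 without ligated 1. Of marker genes 7 passed, against 0 with normexp (6 unadjusted) and 9 with normexp without high-background spots. Their count was 4 with no filter, 13 with array weights, 4 with scan day as a block and 4 with sham 2 and sham 3 averaged, and 4 to 8 with 1 array left out. All 15 pathway genes kept their sign under normexp, while ITIH4, which had not passed, turned to 0.01. Genes that had not passed but did in some setting include PTX3 in 7, TNF in 6, ITIH5 in 5 and ITIH4 in 3. For TNF the 6 include quantile normalization and the nearly identical deposited table. CXCL8, FBN1 and FBN2 kept their call with every single array left out and, with HAS2, with sham 2 and sham 3 averaged. CXCL8, FBN1 and FBN2 were known results of these data, so this is no independent support, and FBN2 entered the test through its ligated arrays alone. The cause of these shifts was not tested. Same-numbered arrays correlated at 0.24, -0.47 and 0.37 in their deviations from the group means. With 3 arrays per group these values cannot decide whether the numbers pair the arrays. With the replicate block TNFAIP6 was 5.53 (SE 0.34) and 12 pathway genes passed. Limits are 3 arrays per group, a slide that cannot be told apart from ligation, and TNFAIP6 probes at bases 593 and 633 that were not well above background on sham 2.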
